A study of Mus musculus with 8 samples.

Results

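Antioxidant and redox defence was followed in isolated mouse pancreatic islets through 40 named genes, all of which were found by symbol among the 16333 genes of the deposited tables. The 40 were set by name and not by a cut on their values, though earlier results of these data were known when they were chosen. They comprise superoxide dismutases and catalase, glutathione peroxidases, peroxiredoxins with sulfiredoxin, thioredoxins with their reductases and the glutaredoxins, the enzymes and transporter that supply glutathione, haem oxygenases, the quinone reductase Nqo1, glucose-6-phosphate dehydrogenase, the NRF2 and KEAP1 pair, and sestrins. Metallothioneins and Txnip were not counted among them.

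Islets came from 2 NFATc2βKO mice, called KO here, and 2 wild-type mice, all labelled as strain Agouti/C57BL6, although the islet protocol names C57BL/6 mice of a commercial supplier beside the transgenic mice. In the KO mice NFATc2, a calcium-activated transcription factor, had been deleted in adulthood with tamoxifen in cells that the labels describe as expressing INS-1, and the label of the wild-type mice says that they too received tamoxifen but that no knockout resulted. The driver of the deletion, the deleted exons and the exact ages are not given in the sources used here. In the deposited tables the genotype compared with KO is called Mut, and it was taken as the wild type because that is the other genotype of the series. After a night in 5.5 mM glucose, islets of each mouse were either left untreated for 2 h or given IL1β (5 ng/mL), TNFα (10 ng/mL) and IFNγ (50 ng/mL) together with 11 mM glucose for 2 h, so that the cytokines and the raised glucose cannot be told apart. This gave 8 libraries in 4 groups of 2, and the series asks which genes depend on NFATc2 in the stress response and function of islets.

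Cells make superoxide and hydrogen peroxide as by-products of respiration and protein folding. Superoxide dismutases turn superoxide into hydrogen peroxide, which catalase, the glutathione peroxidases and the peroxiredoxins remove, and the peroxidases draw their electrons from glutathione and thioredoxin, which are recharged with NADPH. NRF2 (Nfe2l2), held down by KEAP1 until oxidants or electrophiles modify KEAP1, switches on many of these genes. Beta cells, the insulin-producing cells that make up most of a mouse islet, are known for low catalase and low glutathione peroxidase activity, and inflammatory cytokines are known to raise oxidant and nitric oxide production in them.

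Whole read counts of each library were worked back from the deposited group means for 16296 of the 16333 genes, the 40 redox genes included, and held 13855495 to 25623305 reads per library. By 4 Y-linked genes and Xist, each group held 1 female and 1 male library. Each genotype had 2 mice, so libraries of the same sex within a genotype were taken as the 2 cultures of 1 mouse. The female KO library with cytokines held 46.9 Y-linked normalized counts, against 0 to 3.99 in the other female and 8614 to 9879 in the male libraries. Values are given as normalized counts, reads divided by the size factor of the library, with the female before the male mouse. Nfatc2 was present in all 8 libraries, and in the authors' deposited tables its log2 fold change, KO over wild type, was -0.49 (SE 0.23, FDR 0.903) untreated and -0.56 (SE 0.24, FDR 0.474) with cytokines, so neither passed the threshold. Whether the deleted part of the gene gives reads to these counts is not known. Slc2a2, the glucose transporter of beta cells, was high in every library, at 9888 to 12456 normalized counts. Beta markers (7 of 12 recovered) summed to 45320 to 55728 in KO and 48877 to 57390 in wild-type libraries. Alpha markers (7 of 8 recovered) summed to 11674 to 24044 and 15507 to 25860. Delta and PP markers (5 of 6 recovered) summed to 52657 and 43465 in untreated KO islets and 36874 and 26159 with cytokines. In wild-type libraries they summed to 28644 to 37614. Marker sums of other cells also differed between the groups. Macrophage markers (10 of 10 measured) summed to 3111 to 3764 in the 4 KO and 1979 to 2602 in the 4 wild-type libraries, endothelial markers to 4914 to 6293 and 7753 to 10170, stromal markers to 5378 to 14346 and 2267 to 11298, and acinar markers to 23883 to 123851 and 7455 to 64808. Markers of dividing cells (4 of 5 measured) summed to 981 to 1460 in KO and 306 to 409 in wild-type libraries, with no overlap. Of all genes, 5.38% had all 4 KO libraries above all 4 wild-type libraries. The authors' deposited tables called 3 of the 4 markers as higher in KO islets in both conditions. Of all 16333 genes, they called 58 as higher untreated and 133 with cytokines. In bulk tissue of this kind fewer cells of a type and less RNA per cell cannot be told apart, and the part of these differences in the results below was not tested. Reads of Prdx2, Prdx5, Txnrd2, Gclm, Gss, Hmox2, Keap1 and G6pdx may be shared with overlapping genes, since no source used here says whether counting used strand, and Gpx2, Gpx4 and Prdx6 have pseudogenes named after them.

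The redox genes were an abundant set in islets, and Gpx3 stood far above the rest. Per kilobase of exon, the median of the 40 genes was 358 normalized counts, against 116 over 16274 genes with a length, and 31 of the 40 lay above that all-gene median. Gpx3, the secreted glutathione peroxidase, had a mean of 6738 ± 1381 normalized counts per kb (SD over 8 libraries), with a lowest library of 5273 and a highest of 8638, at the 99.8th percentile of all genes. Txn1, the cytosolic thioredoxin, followed with 1529 ± 93.6, Gpx1, the cytosolic glutathione peroxidase, with 1401 ± 300, and Prdx1, the main cytosolic peroxiredoxin, with 1378 ± 51.7 normalized counts per kb. The ranges of these 3 over the libraries overlapped, so their order is not settled, whereas every library of Gpx3 lay above every library of every other redox gene. Levels depend on the length used: per kb of the longest transcript in place of all exons, 13 of the 40 stood over 1.5 times higher, the median of all genes was 151, and Gpx3 was again highest.

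Catalase, by contrast, was of ordinary abundance. Cat had 102 ± 22.1 normalized counts per kb, at the 46.3rd percentile of all genes. Among the dismutases the cytosolic Sod1 stood at 832 ± 71.3, the mitochondrial Sod2 at 200.1 ± 6.21 and the extracellular Sod3 at 26.2 ± 11.9 normalized counts per kb, with no overlap between libraries of the 3. Gpx4, which reduces lipid peroxides in membranes, stood at 647 ± 44.3 and Gpx2, best known from gut epithelium, at 130 ± 43.4. The peroxidases Gpx7 and Gpx8 of the endoplasmic reticulum were at 24.6 ± 7.85 and 40.2 ± 14.1 normalized counts per kb, and their ranges overlapped with each other and with that of Sod3.

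Each peroxiredoxin was above the all-gene median. The mitochondrial Prdx3 stood at 797, Prdx2 at 634, Prdx6 at 603, Prdx5 at 523 and Prdx4, the peroxiredoxin of the endoplasmic reticulum, at 151 normalized counts per kb. Srxn1, the sulfiredoxin that repairs over-oxidised peroxiredoxins, stood at 872 ± 51.5. Both mitochondrial partners of the thioredoxin system were lower than the cytosolic ones: Txn2 stood at 266 and Txnrd2 at 104, against 1529 for Txn1 and 734 for Txnrd1. The glutaredoxins, which use glutathione to reduce mixed disulfides or carry iron-sulfur clusters, lay between 92.0 (Glrx2) and 201 (Glrx3), but per kb of the longest transcript Glrx2 stood at 207, above Glrx5 at 201. On that length Txnrd1 stood at 1436, Gpx4 at 1122 and Sod2 at 342.

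Glutathione supply showed an uneven set of levels. Gsr, which recycles oxidised glutathione, stood at 716, the catalytic and modifier subunits of glutamate-cysteine ligase Gclc and Gclm at 407 and 367, and glutathione synthetase, Gss, at 59.2 normalized counts per kb. Slc3a2, the heavy chain shared by several amino acid transporters, stood at 1214 ± 85.2, while Slc7a11, the light chain that makes it a cystine importer, stood at 34.0 ± 4.65, among the lowest with Gpx8, Sod3 and Gpx7, whose library ranges overlapped with its own. Per kb of the longest transcript Slc7a11 stood at 51.4 and Gpx8 at 40.4. Hmox1 and Hmox2, which degrade haem, stood at 574 and 443, G6pdx, the entry enzyme of the NADPH-making pentose phosphate pathway, at 350, and Nqo1 at 86.7. Nfe2l2 and Keap1 stood at 268 and 338, and the stress-response genes Sesn3, Sesn2 and Sesn1 at 601, 461 and 188 normalized counts per kb.

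**Figure D1:**
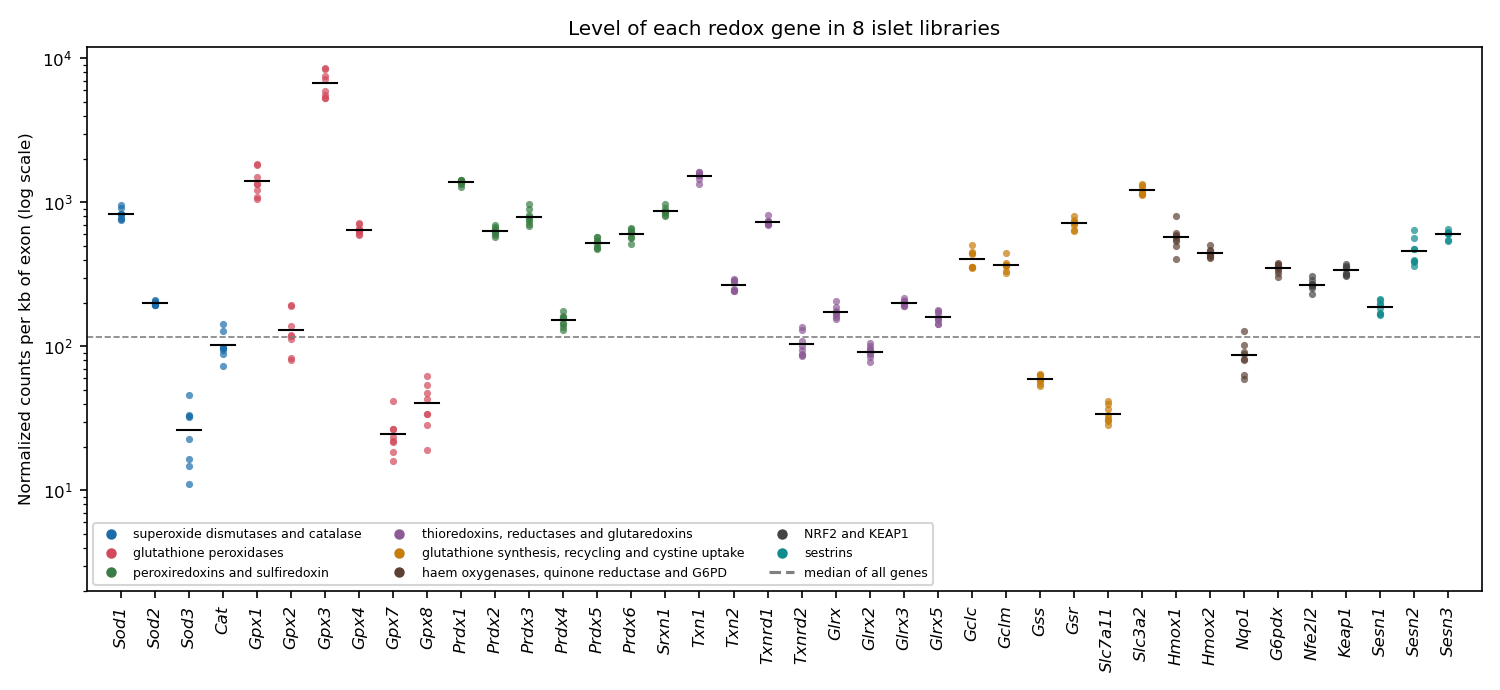
Normalized counts per kilobase of exon (log scale) of each redox gene, with a point for each of the 8 libraries, a bar at their mean and colours for the classes. The dashed line is the median of all genes, 116, and Gpx3 lies between 5273 and 8638 in all 8 libraries.

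The series first asks what the cytokine mixture did. After 2 h no redox gene passed the test. An FDR of 0.05 in the authors' deposited tables was met by 0 of the 40 in KO islets, where 0.0429% of all genes passed, and by 0 of the 40 in wild-type islets, where 0.0122% passed. At an unadjusted p below 0.05 the authors' deposited tables held 2 of the 40 in KO islets (166 of all genes) and 0 in wild-type islets (150 of all genes). The median log2 fold change of the 40 was 0.0104 in KO and 0.00892 in wild-type islets (all genes 0.000577 and 0.00283), with 21 of 40 above 0 in each. A limma fit that blocks on mouse called 0 of the 40 in KO islets (0.123% of all genes) and 0 in wild-type islets (0.153%). Without the block it called 0 of the 40 and 0% of all genes in either.

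The genes nearest to a call were the 2 chains of the cystine importer. Slc7a11 (ENSMUSG00000027737, chromosome 3, 49892526 to 50443614, minus strand, GRCm38) stood at 426 and 396 normalized counts in untreated KO islets and at 577 and 549 with cytokines. In wild-type islets it went from 424 and 442 to 467 and 507. All 4 treated libraries were above all 4 untreated ones. The KO group means were 411 ± 21.3 untreated and 563 ± 19.7 treated, and the wild-type means 433 ± 13.0 and 487 ± 28.6 (SD, n = 2). The authors' deposited tables gave log2 fold changes of 0.45 (SE 0.17, p = 0.00646, FDR 1) in KO and 0.17 (SE 0.17, p = 0.32, FDR 1) in wild-type islets. The difference of these 2 fold changes from the authors' DESeq2 model was 0.29 (SE 0.24, two-sided normal p = 0.231, adjusted p = 1 over all genes), with a 95% interval from -0.18 to 0.75, so the responses of the genotypes were not shown to differ.

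Slc3a2 (ENSMUSG00000010095, chromosome 19, 8706882 to 8723369, minus strand) stood at 3973 and 4084 normalized counts in untreated KO islets and at 4670 and 4706 with cytokines. In wild-type islets it went from 4037 and 4050 to 4510 and 4231. All 4 treated libraries were above all 4 untreated ones. Its log2 fold changes in the authors' deposited tables were 0.22 (SE 0.10, p = 0.0292, FDR 1) in KO and 0.11 (SE 0.10, p = 0.27, FDR 1) in wild-type islets.

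A single cytokine term over both genotypes, in a limma fit that blocks on mouse, uses all 4 pairs of cultures. This limma term gave log2 fold changes of 0.31 (SE 0.07, adjusted p = 0.0782) for Slc7a11 and 0.17 (SE 0.04, adjusted p = 0.075) for Slc3a2, short of the 0.05 that 0.847% of all genes passed. In that fit 0 of the 40 passed, and 11 of the 40 had an unadjusted p below 0.05, against 2714 of all 16296 genes. Both genes of the importer would pass at a threshold of 0.1, and without the wild-type female mouse Slc7a11 passed limma at 0.05 (log2 0.37, adjusted p = 0.0491).

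Counted by direction alone, 9 of the 40 were higher with cytokines in all 4 mice (22.5%, against 12.4% of all genes): Slc7a11, Slc3a2, Srxn1, Txnrd1, Gsr, Nfe2l2, Sod2, Sod3 and Gpx8. Another 3 were lower in all 4 mice (7.5%, against 12.5% of all genes): Prdx6, Glrx and Keap1. RefSeq promoter windows are shown for 4 of the 9 genes of the first group. They run from 250 bases before to 50 bases after the annotated start on GRCm38.p6. For Txnrd1 only a window that holds the antioxidant response element core was shown. That window lies inside the gene, which spans 82833951 to 82897712. Capitals mark matches, on either strand, to the antioxidant response element core TGACNNNGC, the AP-1 site TGANTCA, or the amino acid response element core TGATGNAA. The last is the kind of site through which the stress factor ATF4 acts on amino acid transporter genes, and it was added to the search after the values had been seen.
Slc7a11 promoter, chr3:50443564-50443863, minus strand: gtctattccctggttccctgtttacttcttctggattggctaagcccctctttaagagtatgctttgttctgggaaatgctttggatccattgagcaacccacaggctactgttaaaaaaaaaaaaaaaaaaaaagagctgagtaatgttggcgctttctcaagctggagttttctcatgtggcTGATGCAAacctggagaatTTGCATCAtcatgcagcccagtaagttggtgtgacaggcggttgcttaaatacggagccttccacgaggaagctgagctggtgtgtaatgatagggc
Slc3a2 promoter, chr19:8713848-8714147, minus strand: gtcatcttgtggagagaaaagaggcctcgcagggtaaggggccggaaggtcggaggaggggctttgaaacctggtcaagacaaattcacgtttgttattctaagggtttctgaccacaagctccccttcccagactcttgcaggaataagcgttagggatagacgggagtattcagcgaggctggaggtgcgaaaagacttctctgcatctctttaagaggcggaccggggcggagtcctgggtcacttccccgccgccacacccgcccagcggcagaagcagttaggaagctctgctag
Srxn1 promoter, chr2:152105274-152105573, plus strand: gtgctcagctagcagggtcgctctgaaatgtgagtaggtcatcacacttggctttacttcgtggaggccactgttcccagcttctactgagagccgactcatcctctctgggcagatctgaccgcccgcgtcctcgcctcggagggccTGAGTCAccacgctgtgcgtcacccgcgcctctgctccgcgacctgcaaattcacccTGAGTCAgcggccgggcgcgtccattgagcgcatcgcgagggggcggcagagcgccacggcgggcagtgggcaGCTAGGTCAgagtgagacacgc
Txnrd1 promoter, chr10:82858956-82859255, plus strand: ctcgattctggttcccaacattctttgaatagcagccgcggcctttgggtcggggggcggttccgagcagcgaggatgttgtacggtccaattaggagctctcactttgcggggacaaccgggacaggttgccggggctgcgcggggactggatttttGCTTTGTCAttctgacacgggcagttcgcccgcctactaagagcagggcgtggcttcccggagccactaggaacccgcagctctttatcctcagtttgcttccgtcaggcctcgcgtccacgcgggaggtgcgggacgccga

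The Slc7a11 window holds 2 matches to the amino acid response element core, at positions -66 to -59 and -47 to -40 from the start. Slc7a11 is the only 1 of the 35 redox genes with a window that holds this core. Of 27025 genes, 4.51% have at least 1 such match in a window of this length. Srxn1 holds 2 AP-1 sites, at -102 to -96 and -45 to -39, and an antioxidant response element core at 29 to 37. The Txnrd1 window, which was chosen for holding that core, has it at -92 to -84. The Slc3a2 window holds no match to these letters. Of the 35 redox genes with a window, 8 hold the antioxidant response element core (14% of all genes do), namely Prdx1, Sod1, Txnrd1, Srxn1, Gclm, Nfe2l2, G6pdx and Sesn2. AP-1 sites, whose letters can share bases with that core, were found in Prdx1, Glrx and Srxn1 (8.97% of all genes), and the NF-κB site in Prdx1 and Sod2 (5.14% of all genes). No window was found for Prdx6, Sod3, Gclc, Gsr and Hmox1.

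Srxn1 and Txnrd1 differed by small amounts. Srxn1 stood at 2268 and 2435 normalized counts in untreated and 2471 and 2730 in treated KO islets, and at 2320 and 2424 against 2585 and 2435 in wild-type islets. The common term of limma was 0.11 (SE 0.04, adjusted p = 0.191). Txnrd1, the selenoprotein that recharges thioredoxin, went from 4979 and 4915 to 5289 and 5143 normalized counts in KO and from 5196 and 5026 to 5821 and 5232 in wild-type islets. Its common limma term was 0.09 (SE 0.03, adjusted p = 0.195), and in KO islets treated libraries did not overlap untreated ones, nor did they in wild-type islets.

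**Figure D2:**
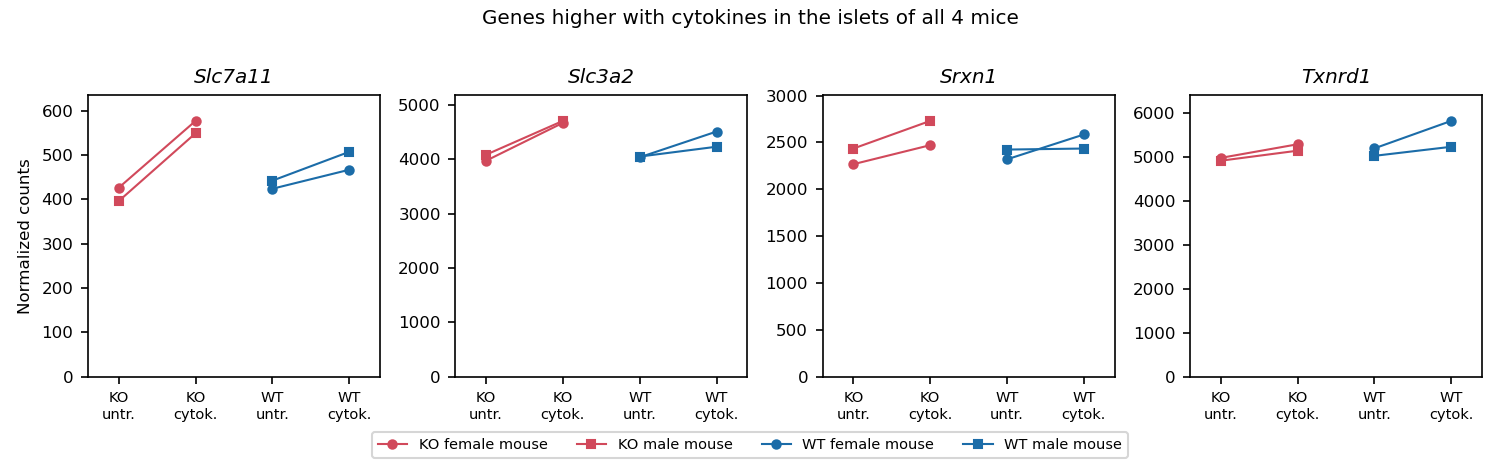
Normalized counts of 4 redox genes that were higher with cytokines in all 4 mice, with a line joining the untreated and treated culture of each mouse, circles for female and squares for male mice. The Slc7a11 lines are steeper in the KO mice (396 to 549 and 426 to 577) than in the wild-type mice, a difference between genotypes that did not pass the test.

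Sod2, the mitochondrial dismutase known as an NF-κB target in many cells, hardly differed. It stood at 1939 and 2008 normalized counts in untreated and 1941 and 2044 in treated KO islets, and at 1945 and 2069 against 1980 and 2099 in wild-type islets. All 8 libraries lay between 1939 and 2099, and the differences between the mice exceeded those between conditions. The authors' deposited tables gave fold changes of 1.01 in KO (95% interval 0.8549 to 1.193, p = 0.907) and 1.02 in wild-type islets (95% interval 0.8595 to 1.201, p = 0.851).

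Nfe2l2 went from 1025 and 1008 to 1162 and 1027 normalized counts in KO and from 879 and 959 to 1101 and 989 in wild-type islets. It was higher in each mouse, by log2 differences of 0.18 and 0.03 in the KO and 0.33 and 0.04 in the wild-type mice, so that both female mice differed more than both males. The limma common term was 0.14 (SE 0.06, adjusted p = 0.244). Keap1, its inhibitor, went from 1468 and 1688 to 1446 and 1499 in KO and from 1759 and 1645 to 1658 and 1518 in wild-type islets. It was lower in each mouse, with log2 differences of -0.02, -0.17, -0.08 and -0.12, and a common limma term of -0.10 (SE 0.04, adjusted p = 0.253). Nqo1, Hmox1 and Gclm, unlike Srxn1, Txnrd1, Slc7a11 and Gsr, did not have the same sign in all 4 mice. Nqo1 had log2 differences of 0.15 and 0.09 in KO and 0.33 and -0.15 in wild-type mice. Hmox1 had -0.04 and -0.31 in KO and 0.39 and -0.02 in wild-type mice, and Gclm was within 0.05 of 0 in 3 of 4 mice and 0.27 in the wild-type male.

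Sod3 and Gpx8 had the widest common terms, 0.68 and 0.61 on the log2 scale (adjusted p = 0.154 and 0.229 in limma), and their largest values lay in 1 mouse. Sod3 went from 85.5 and 123.5 to 124.3 and 171.5 normalized counts in KO islets and from 41.2 and 55.0 to 120.5 and 61.7 in wild-type islets. Gpx8 went from 49.9 and 29.6 to 64.7 and 35.7 in KO and from 19.9 and 35.5 to 56.5 and 45.0 in wild-type islets. The largest log2 difference of both genes was in the wild-type female, 1.54 for Sod3 and 1.48 for Gpx8, against 0.16 and 0.34 in the wild-type male. In that mouse the 9 stromal markers summed to 2546 normalized counts untreated and 11298 with cytokines, and Col1a1, the collagen gene that defines stromal cells, went from 542 to 3665. Whether the stromal content sets the values of Sod3 and Gpx8 was not tested. The authors' deposited table gave wild-type log2 fold changes of 0.83 (SE 0.45, p = 0.0681, FDR 1) for Sod3 and 0.95 (SE 0.60, p = 0.113, FDR 1) for Gpx8. Without the wild-type female mouse the limma log2 fold change in wild-type islets was 0.16 for Sod3 and 0.34 for Gpx8. Without the male it was 1.54 and 1.48, so each value comes from the lone mouse left.

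Differences on the lower side were small. Prdx6, a peroxiredoxin that also has phospholipase activity, went from 2729 and 3118 to 2487 and 3001 normalized counts in KO and from 3164 and 2977 to 2951 and 2761 in wild-type islets. Its common term in limma was -0.10 (SE 0.03, adjusted p = 0.177). Glrx, the cytosolic glutaredoxin, went from 937 and 902 to 849 and 884 in KO and from 1024 and 1129 to 953.5 and 964 in wild-type islets. Glrx2, its mitochondrial relative, went from 779.8 and 823.6 to 783 and 734.5 in KO and from 843 and 931 to 682 and 879 in wild-type islets, lower in 3 of 4 mice. The common limma terms were -0.13 for Glrx (SE 0.05, adjusted p = 0.221) and -0.14 for Glrx2 (SE 0.06, adjusted p = 0.268). Gss went from 372 and 376 to 315 and 338 in KO and from 380.2 and 345 to 321.5 and 353 in wild-type islets. It had log2 differences of -0.24, -0.155 and -0.24 in 3 mice and 0.03 in the wild-type male, and its common limma term was -0.15 (SE 0.07, adjusted p = 0.304).

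None of the others had an unadjusted p below 0.05 in the common term. Txnrd2 and Nqo1 stood at -0.12 and 0.10 with an SE of 0.08 and 0.10. In that term the 5 other peroxiredoxins lay between -0.04 (Prdx2) and 0.09 (Prdx4), Txn2 and Gpx1 at 0.03 and 0.02, Gpx2 at -0.03, and the 3 sestrins between -0.03 and 0.02. Cat was lower with cytokines in both KO mice and higher in both wild-type mice, and the responses computed from the authors' DESeq2 fold changes differed by -0.36 (SE 0.34, p = 0.302, adjusted p = 1 in the normal test). Gpx7 went from 28.5 and 54.0 to 34.3 and 28.0 normalized counts in KO and from 23.9 and 20.6 to 30.4 and 34.2 in wild-type islets, with log2 differences from -0.93 to 0.71 over the mice. The responses differed by -0.93 (SE 0.91) for Gpx7, -0.37 (SE 0.34) for Hmox1, 0.13 (SE 0.22) for Sod1 and 0.11 (SE 0.14) for Slc3a2, KO minus wild type on the log2 scale. No redox gene passed the test of a difference between the responses of the genotypes: the normal test on the deposited fold changes called 0 of 40 and 0% of all genes (36 genes and 0 of the 40 at an unadjusted p below 0.05). The interaction term of limma with mouse blocking also called 0 of 40 and 0% of all genes. In that term Slc7a11, Hmox1 and Cat had unadjusted p-values of 0.0307, 0.0398 and 0.0479 (adjusted p = 0.998 for each).

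**Figure D3:**
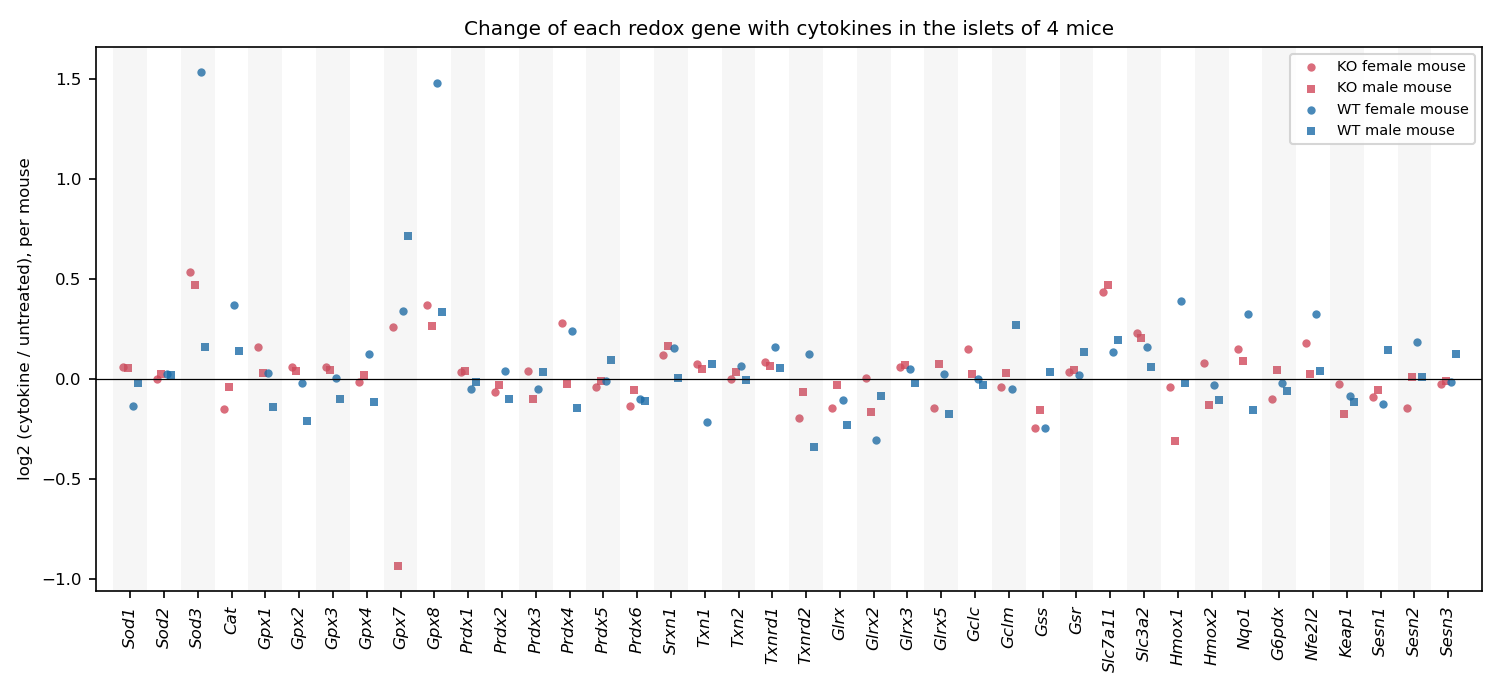
Log2 ratio of the treated to the untreated culture of each mouse for every redox gene, red for KO and blue for wild type, circles for female and squares for male mice. Slc7a11 and Slc3a2 lie above 0 in all 4 mice, and the widest values belong to the low genes Sod3, Gpx8 and Gpx7.

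The series then asks what differed between KO and wild-type islets. Gpx3 and Gclc were higher in KO islets with cytokines, and these 2 of 40 (5%) were the redox genes past an FDR of 0.05 in the authors' deposited table, where 0.998% of all genes passed and 0.814% passed as higher. Untreated, 0 of the 40 passed in the authors' deposited table, where 0.41% of all genes did. At an unadjusted p below 0.05 there were 6 of the 40 in each condition (798 of all genes untreated and 960 with cytokines). The median log2 fold change of the 40 was -0.00378 untreated and 0.00303 with cytokines (all genes -0.00403 and -0.00324), with 18 and 20 of the 40 above 0. The comparisons untreated and with cytokines use islets of the same mice, so a gene that differs between the mice appears in both.

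Gpx3 (ENSMUSG00000018339, chromosome 11, 54902453 to 54910377, plus strand) stood at 13117 and 15180 normalized counts in untreated KO islets and 13677 and 15660 with cytokines. The wild-type libraries held 9559 and 10822 untreated and 9599 and 10107 with cytokines. All 4 KO libraries were above all 4 wild-type libraries, and males were above females in each pair. The group means with cytokines were 14669 ± 1402 in KO and 9853 ± 359 in wild-type islets (SD, n = 2). In the authors' deposited tables the log2 fold change was 0.57 with cytokines (SE 0.14, FDR 0.00506, 1.49-fold) and 0.47 untreated (SE 0.14, FDR 0.0846, 1.39-fold). Limma with mouse sex as a covariate gave 0.57 (adjusted p = 0.00868) and 0.47 (adjusted p = 0.0174), and without it 0.57 (adjusted p = 0.232) and 0.47 (adjusted p = 0.533).

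Gclc (ENSMUSG00000032350, chromosome 9, 77754535 to 77794485, plus strand), whose product catalyses the rate-limiting step of glutathione synthesis, held 1706 and 1648 normalized counts in untreated KO islets and 1897 and 1680 with cytokines. Wild-type islets held 1345 and 1336 untreated and 1347 and 1310 with cytokines. All 4 KO libraries were again above all 4 wild-type libraries, and the wild-type values lay between 1310 and 1347. In the authors' deposited tables its log2 fold change was 0.43 with cytokines (SE 0.12, FDR 0.0457, 1.345-fold) and 0.32 untreated (SE 0.12, FDR 0.449, 1.25-fold). The call was close to the threshold: over genes with a mean of at least 100 normalized counts the adjusted p of the authors' test was 0.0611. Without the KO female mouse, which leaves a lone KO mouse, limma gave 0.35. Gclm, the other subunit of the same enzyme, was not called, with log2 fold changes of 0.07 untreated and -0.06 with cytokines in the authors' deposited tables.

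Gpx1 (chromosome 9, 108338903 to 108340343, plus strand) stood at 1930 and 2605 normalized counts in untreated KO islets against 1526 and 1943 in wild-type islets, and at 2161 and 2663 against 1561 and 1767 with cytokines. The genotypes overlapped untreated, where the KO female lay below the wild-type male, and did not overlap with cytokines. For Gpx1 the log2 fold change in the authors' deposited tables was 0.39 untreated (SE 0.21, FDR 1). With cytokines it was 0.54 in the authors' deposited table (SE 0.21, p = 0.00901, FDR 0.339). Limma with the sex of the mouse called it with cytokines (0.53, adjusted p = 0.0189) and not untreated (0.38, adjusted p = 0.0651).

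Other genes had lower values in KO islets without passing the authors' threshold. All 4 KO libraries were below all 4 wild-type libraries for Gpx2, Hmox1, Sesn2, Glrx and G6pdx, 5 of the 40 (12.5%, against 4.75% of all genes), while Gpx3 and Gclc were the 2 of 40 above (5%, against 5.38% of all genes). Gpx2 (chromosome 12, 76792333 to 76795554, minus strand) stood at 364 and 260 normalized counts in untreated KO and 626 and 448 in wild-type islets, and at 379 and 268 against 618 and 388 with cytokines. In the authors' deposited tables Gpx2 had log2 fold changes of -0.78 untreated (SE 0.32, FDR 0.58) and -0.64 with cytokines (SE 0.32, FDR 0.798). Female libraries of Gpx2 were above male ones in each pair, and limma with the sex of the mouse called Gpx2 in both conditions (adjusted p = 0.0148 untreated and 0.0214 with cytokines). Glrx had -0.23 and -0.15 and G6pdx -0.18 and -0.16 (FDR 1 for each) in the authors' deposited tables.

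Sesn2, a sestrin induced by amino acid and oxidative stress that restrains mTORC1, held 1388 and 1339 normalized counts in untreated KO and 1958 and 1641 in wild-type islets, and 1257 and 1349 against 2228 and 1652 with cytokines. The gap was widest in the female pair with cytokines. Untreated, the log2 fold change of Sesn2 in the authors' deposited table was -0.40 (SE 0.18, p = 0.0268, FDR 0.81). With cytokines the authors' deposited table gave -0.57 (SE 0.18, p = 0.00153, FDR 0.105), and without the wild-type female mouse limma gave -0.33. Limma with the sex of the mouse did not call it (adjusted p = 0.187 and 0.057).

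Hmox1, the inducible haem oxygenase, which macrophages also express, stood at 973 and 875 normalized counts in untreated KO and 1077 and 1034 in wild-type islets, and at 948 and 707 against 1413 and 1021 with cytokines. With cytokines its log2 fold change in the authors' deposited table was -0.56 (SE 0.21, p = 0.00909, FDR 0.34), and limma with the sex of the mouse called it (adjusted p = 0.0472). In the same libraries 10 of 10 macrophage markers had a fold change above 0 untreated and 9 of 10 with cytokines, and their part in the Hmox1 values was not tested. Nqo1 had a log2 fold change of -0.47 (SE 0.36, FDR 1) in both of the authors' deposited tables. Untreated, both KO libraries lay below both wild-type ones (125 and 91.7 normalized counts against 158 and 141), and with cytokines the KO female (138) lay above the wild-type male (127).

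Limma with the sex of the mouse called 2 of the 40 untreated, Gpx3 and Gpx2, where 2.1% of all genes passed. With cytokines it called 5 of the 40, Gpx3, Gclc, Gpx1, Gpx2 and Hmox1, where 3.74% of all genes passed. That fit treats the 2 cultures of a mouse as separate libraries, so its p-values are too small. The limma fit without that covariate also treats them as separate. Whether the authors' model allowed for the shared mouse is not known, so the same limit may hold for their calls of Gpx3 and Gclc. Without the covariate limma called 0 of the 40 in either condition and 0.0123% of all genes in each. With 2 mice per genotype, all these p-values rest on few animals. The fit with sex also takes out the gap between female and male that both genotypes share. Its p-values therefore do not measure the full spread between the mice.

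Among the dismutases and catalase, Sod3 and Cat had an unadjusted p below 0.05 in untreated islets. Sod3 held 85.5 and 123.5 normalized counts against 41.2 and 55.0 in wild-type islets (log2 1.12, FDR 0.586, p = 0.0138, SE 0.45 in the authors' deposited table). Cat held 371 and 259.5 against 191 and 230.4, with a log2 fold change of 0.58 (SE 0.27, p = 0.0337, FDR 0.886) in the authors' deposited table. With cytokines Sod3 libraries stood at 124.3 and 171.5 against 120.5 and 61.7, and Cat libraries at 335 and 253 against 248 and 254. The genotypes then overlapped for Cat, and for Sod3 the KO female lay just above the wild-type female. Stromal markers, which were summed above, were higher in untreated KO islets (11008 and 5997 against 2546 and 2267 normalized counts), and their part in the Sod3 values was not tested.

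No peroxiredoxin, thioredoxin or reductase passed the test between genotypes. The 7 genes of the peroxiredoxin group lay between -0.07 and 0.19 untreated and between -0.10 and 0.19 with cytokines in the authors' deposited tables, with 0 of 7 at an unadjusted p below 0.05. The 8 thioredoxin, reductase and glutaredoxin genes lay between -0.23 and 0.29 untreated and between -0.15 and 0.29 with cytokines there, with 0 of 8 at an unadjusted p below 0.05. The outermost values belonged to Glrx (-0.23 untreated) and Txnrd2 (0.29 in both conditions). Sod2 had a log2 fold change of -0.02 (SE 0.11, FDR 1) untreated in the authors' deposited table.

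**Figure D4:**
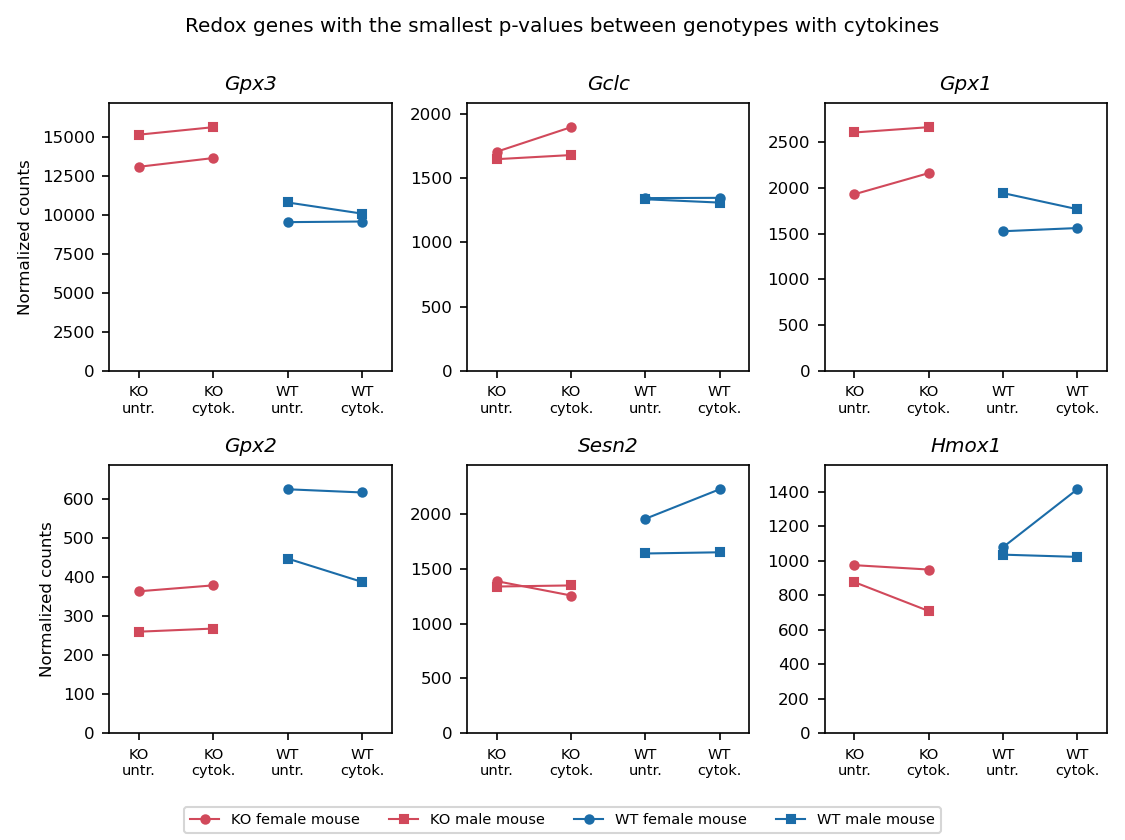
Normalized counts of the 6 redox genes with the smallest p-values between genotypes with cytokines, with a line joining the untreated and treated culture of each mouse. KO mice (red) lie above wild-type mice (blue) for Gpx3 (13117 to 15660 against 9559 to 10822) and Gclc, and below them for Gpx2, Sesn2 and Hmox1.

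**Figure D5:**
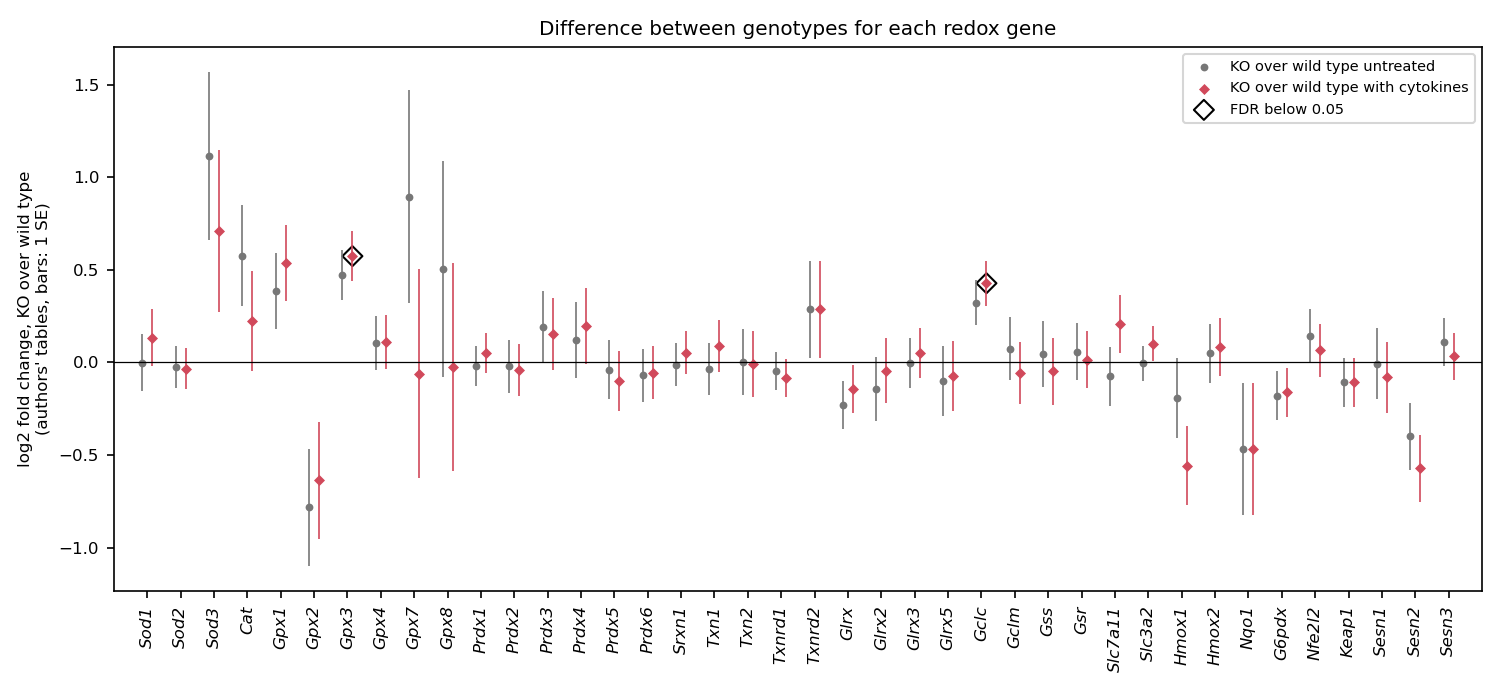
Log2 fold change of KO over wild-type islets for every redox gene in the authors' deposited tables, untreated (grey) and with cytokines (red), with bars of 1 SE and an open diamond where the FDR was below 0.05. The diamonds mark Gpx3 (0.57) and Gclc (0.43) with cytokines.

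Female and male libraries were also compared within each group. The female library was above the male library in all 4 pairs for 7 of the 40 genes (17.5%, against 19.8% of all genes): Gpx2, Txnrd1, Glrx5, Gclc, Hmox1, Nqo1 and Sesn1. The male library was above the female in all 4 pairs for 9 of the 40 (22.5%, against 19.4% of all genes): Gpx1, Gpx3, Prdx3, Sod1, Sod2, Txn1, Glrx3, Gsr and Hmox2. With 1 mouse of each sex per genotype, sex and the individual mouse cannot be told apart.

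Some genes that work beside the 40 differed more. Mgst1, a microsomal glutathione transferase that also reduces lipid peroxides, held 175 and 414 normalized counts in untreated KO islets and 39.9 and 71.1 in wild-type islets, and 222 and 383 against 48.9 and 62.5 with cytokines. In the authors' deposited tables it was higher in KO islets by 2.41 (SE 0.49, FDR 0.000656) untreated and 2.44 (SE 0.48, FDR 0.000239) with cytokines. Mgst1 was the 1 call among 32 genes of glutathione conjugation and related NRF2 functions. Of all genes, 0.41% were called untreated and 0.998% with cytokines. Cth, which makes cysteine from cystathionine, held 76.1 and 89.2 normalized counts in KO islets with cytokines against 17.4 and 23.3 in wild-type islets. It was higher by 2.01 on the log2 scale in the authors' deposited table (FDR 0.00657, SE 0.48), whereas untreated it was not called there (1.36, FDR 0.325, SE 0.48). Chac1, which breaks down glutathione and is induced by ATF4, held 601 and 683 normalized counts in untreated KO islets against 1476 and 1073 in wild-type islets. Its log2 fold change in the authors' deposited table was -0.99 (FDR 0.0094, SE 0.23), and -0.68 (FDR 0.18) with cytokines. Cth and Chac1 were the 2 calls among 15 measured genes of cysteine and glutathione metabolism, against the same shares of all genes.

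Oxidant-producing enzymes held 1 call untreated and 2 with cytokines, where 0.41% and 0.998% of all genes were called. Of 14 measured, the authors' deposited tables called Cybb, the catalytic subunit of the phagocyte NADPH oxidase, in both conditions (log2 1.42 untreated, FDR 0.00381, and 1.52 with cytokines, FDR 0.00022) and Rac2, a regulator of the same oxidase in blood cells, with cytokines (3.28, FDR 1.84e-06). Cybb held 156 and 126 normalized counts against 49.2 and 56.2 untreated, and 222 and 188 against 69.5 and 73.3 with cytokines. Rac2 held 112 and 142 normalized counts in treated KO and 17.4 and 9.16 in treated wild-type islets. Both genes are known from leukocytes, and lymphocyte markers (6 of 9 measured) summed to 2535 to 29033 normalized counts in KO and 191 to 304 in wild-type libraries. In KO islets with cytokines this sum was 29033 in the female and 2535 in the male. Ptprc, a leukocyte gene of that list, stood there at 742 and 1089 normalized counts, against 151 and 188 in treated wild-type islets. The part of leukocytes in the Cybb and Rac2 values was not tested. The median log2 fold change over these 14 genes was 0.42 in both genotype comparisons, with 11 of 14 above 0 in each. Over all genes it was -0.00403 untreated and -0.00324 with cytokines.

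The authors called none of the 17 genes of NADPH supply or the 14 partners and relatives of NRF2 in any of the 4 deposited tables. Nor did they call any of the 34 other thioredoxin-fold and methionine sulfoxide repair genes. Over the 4 tables these groups held 2, 3 and 3 results at an unadjusted p below 0.05. Of all 16333 genes, 166 in KO and 150 in wild-type islets had such a p for the cytokine response. Between genotypes it was 798 untreated and 960 with cytokines. The smallest p-values of these groups belonged to Mthfd1l and Aldh1l2, folate enzymes of mitochondria, to Foxo1, a stress-response transcription factor, and to Selenop, a secreted selenoprotein. The common cytokine term of limma called 2 of the 14 NRF2 partners and relatives as higher and no gene of the other 5 groups. Of all genes, 0.847% passed in that fit. Maff, a small MAF protein that pairs with NRF2 or represses its sites, went from 361 and 316 to 420 and 441 normalized counts in KO and from 304.4 and 300.3 to 430.1 and 368 in wild-type islets (limma, log2 0.37, SE 0.07, adjusted p = 0.0491). Hif1a, the oxygen-sensitive transcription factor, was higher by 0.22 on the log2 scale (limma, SE 0.03, adjusted p = 0.0294), in all 4 mice.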

How the data were processed

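RNA of mouse islets was sequenced in 8 libraries, and 4 tables of comparisons over 16333 genes were deposited. Reads were processed with HISAT2, HTSeq and DESeq2 on GRCm38, per the submitters' processing notes. The group means in the deposited tables are normalized counts (unit: signal), made by the authors by dividing reads by size factors. The log2 fold changes, the test scores (Wald statistics), the p-values and the FDR in the deposited tables are the authors' own, and each standard error was computed by dividing a fold change by its score. The smallest deposited mean over all libraries was 23.19, so rarer genes were not analysed here.

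Whole reads of each library were recovered from the means of 2 libraries for 99.8% of genes, with a relative gap to the deposited overall mean of at most 5.9e-15, and 37 genes could not be settled. Recovered libraries were tied to a mouse by sex, and to no replicate number of the labels. The 2 cultures of a mouse deviated together from their group means (correlation 0.809 in KO and 0.83 in wild type over 12333 genes). KO and wild-type libraries of the same sex, which come from different mice, also did so (0.616 untreated and 0.577 with cytokines). The shared deviation is therefore not particular to cultures of the same mouse. The main call was the authors' FDR below 0.05. Limma 3.58.1 (R 4.3.3) was run on log2(normalized count + 0.5) with Benjamini-Hochberg adjustment over all genes, and its fold changes are on that scale. Differences of responses were tested with a two-sided normal test on the deposited fold changes, adjusted in the same way. A count model named in the plan was not run, since no table of counts was used. Scripts were tested on simulated data. Exon lengths and positions are from GENCODE M21, which lacked 22 gene identifiers.

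The members and the other gene lists were chosen with earlier results of these data known, and the amino acid response element was added to the search after values were seen. Full values are given for each redox gene called, for the 3 with the smallest p in each direction of a comparison, and for the extremes of level, and others were named to describe their class. Alternatives were another threshold, a mean of at least 100, a pseudocount of 5, scaling by total reads, blocks, and leaving out each mouse.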

Additional observations from a re-analysis of the deposited data

How the results depend on the processing

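The counts of redox genes called depended on the fit between genotypes and little within them. Of 40, in the order untreated then with cytokines, KO against wild type gave 0 and 2 in the authors' tables. It gave 2 and 5 in limma with mouse sex as replicate block, the same 2 and 5 with scaling by total reads and with a pseudocount of 5, and 0 and 0 with no replicate block. At a threshold of 0.1 Gpx3 was also called untreated, making 1, and with tests limited to a mean of at least 100 the call of Gclc with cytokines was lost, leaving 1. Leaving out each mouse gave 3 to 16 untreated and 3 to 20 with cytokines, in limma fits that leave 1 genotype with a lone mouse, assumed to vary like the others. Those fits called up to 5020 of all genes with cytokines. For all genes the calls were 67 untreated and 163 with cytokines in the authors' tables, 343 and 610 in the sex fit, 330 and 599 with total reads, 347 and 626 with a pseudocount of 5, and 100 untreated at 0.1 and 84 with cytokines at the higher mean. The response to cytokines held 0 calls under each setting but leave-one-out, which gave 0 to 2 in KO islets (Slc7a11 and Slc3a2) and 0 to 6 in wild-type islets. For the common term it gave 0 to 1 (Slc7a11), and a threshold of 0.1 gave 2, with 411 of all genes against 138. The leave-one-out fits of the cytokine response likewise leave a genotype with a lone mouse, assumed to vary like the others. All leave-one-out counts, within and between genotypes, therefore rest on an assumed spread. No difference of the redox genes from all genes is read from them. Pairing by mouse as a replicate block changed no call of the 40 in the cytokine comparisons. Of 311 values of single genes and medians under alternatives, 252 kept their side of the threshold, 54 passed it newly, 4 lost it and 1 median shifted, and no direction reversed. The 4 were Gpx3 with cytokines without a block (adjusted p = 0.232 in limma) and Gclc without a block, at the higher mean, and without the KO female mouse. Scaling by total reads moved the median of all genes by less than 0.1. With 2 mice per genotype and a 2 h exposure, small changes of the low genes Gpx7, Gpx8 and Sod3 are the least certain.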
